A study of Mus musculus with 10 samples.

Results

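Polycomb proteins keep developmental genes silent, and 10 genes that encode core subunits of the Polycomb repressive complexes PRC1 and PRC2 were followed in the thymus of Usp7 knock-out mice. They were Ring1, Rnf2, Bmi1, Pcgf1, Pcgf6, Bcor, Kdm2b, Ezh2, Eed and Suz12, found by matching the Ensembl identifiers of the count table to these symbols. They made up 10 of the 35375 features of the table, each matched 1 row, and all 10 were among the 19511 features that passed the filter on low counts.

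Thymus RNA was taken 3 days after birth from C57BL/6J mice whose hematopoietic cells lacked Usp7 on both alleles (homozygous KO, n = 3) or on 1 allele (heterozygous KO, n = 3), and from mice with both Usp7 alleles intact (wild type, n = 4). Of the wild types, 2 had undergone Cre induction and 2 had not, without a statement of which. The titles of wild-type replicates 1 and 2 hold 2 wt words and those of replicates 3 and 4 hold 1, and the count columns of the latter pair add the word het, which is not explained; the group in the title was kept. The Cre driver and the deleted exons were not given in the sources used here, and non-hematopoietic cells of the thymus should keep the gene. Each library carries its own animal number, so replicates were taken as separate mice, and RNA had been freed of ribosomal RNA and made into stranded libraries.

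PRC1 attaches ubiquitin to histone H2A through the RING proteins RING1 and RNF2, each paired with a PCGF protein that sets the type of complex. PRC2 methylates histone H3 through EZH2 or its paralogue EZH1, held together by EED and SUZ12, and both complexes are needed in developing T cells, where they silence the cell-cycle inhibitors of the Cdkn2a locus and genes of other lineages. USP7, which takes ubiquitin off other proteins, is a member of non-canonical PRC1 and is known to bind and stabilise several PRC1 proteins, a step that RNA counts do not measure.

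Levels were counts per M counts of a library (CPM), with library sizes scaled by TMM, and differences were log2 fold changes from edgeR's quasi-likelihood test over all 19511 features, with their standard error (SE) and Benjamini-Hochberg adjusted p. A gene was called at an adjusted p under 0.05. The libraries held 39.8 to 122 M counts, and every member had at least 377 counts in each. The 8 genes chosen to mark double-positive thymocytes, the main cells of the thymus, summed to between 7876 and 10929 CPM. Xist, the RNA of the inactive X chromosome, stood at 1913 to 2459 CPM in homozygous replicate 3 and wild-type replicates 2, 3 and 4, and at 1.12 CPM or less in the other 6 libraries, so that the heterozygous group held no Xist-positive library. In whole tissue, fewer cells of a type and less RNA per cell cannot be told apart.

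Usp7 itself was read first. It stood at 303, 422 and 408 CPM in the homozygous libraries, at 472, 516 and 516 CPM in the heterozygous libraries and at 676, 670, 594 and 589 CPM in the wild types. The groups did not overlap and lay in the order of the number of alleles removed, although reads from any undeleted exons would still be counted. The homozygous group differed from wild type by a fitted log2 value of −0.74 ± 0.11 (SE; edgeR adjusted p = 0.000525), and the heterozygous value was −0.34 ± 0.11, not called (SE; edgeR adjusted p = 0.608). Between the knock-outs it was −0.41 ± 0.11 (SE; edgeR adjusted p = 0.0288). Exact permutation, two-sided, gave p = 0.0286 against wild type for each knock-out and 0.1 between the knock-outs, in each case the smallest value the design allows. The last of the fitted calls was lost in 3 of 19 alternative fits, among them those without heterozygous replicate 2 (edgeR adjusted p = 0.0766) or replicate 3 (edgeR adjusted p = 0.0915).

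Of the 10 subunits, Bcor, Ezh2 and Eed were called higher and Bmi1 lower in homozygous KO against wild type. The largest rise was that of Bcor, 1.44-fold, followed by Ezh2 at 1.37-fold and Eed at 1.13-fold, while Bmi1 fell to 0.800 of the wild-type level. These 4 calls of 10 compare with 25.8% of all tested features in this comparison, the 3 higher calls with 12.5% and the single lower call with 13.2%. The groups did not overlap for 5 members (Ring1, Bmi1, Bcor, Ezh2 and Eed), beside 32.7% of all features. The median log2 fold change of the members was 0.08, beside −0.01 for all features tested. With only 10 members these shares are small-number counts and say nothing about the members as a group.

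**Figure D1:**
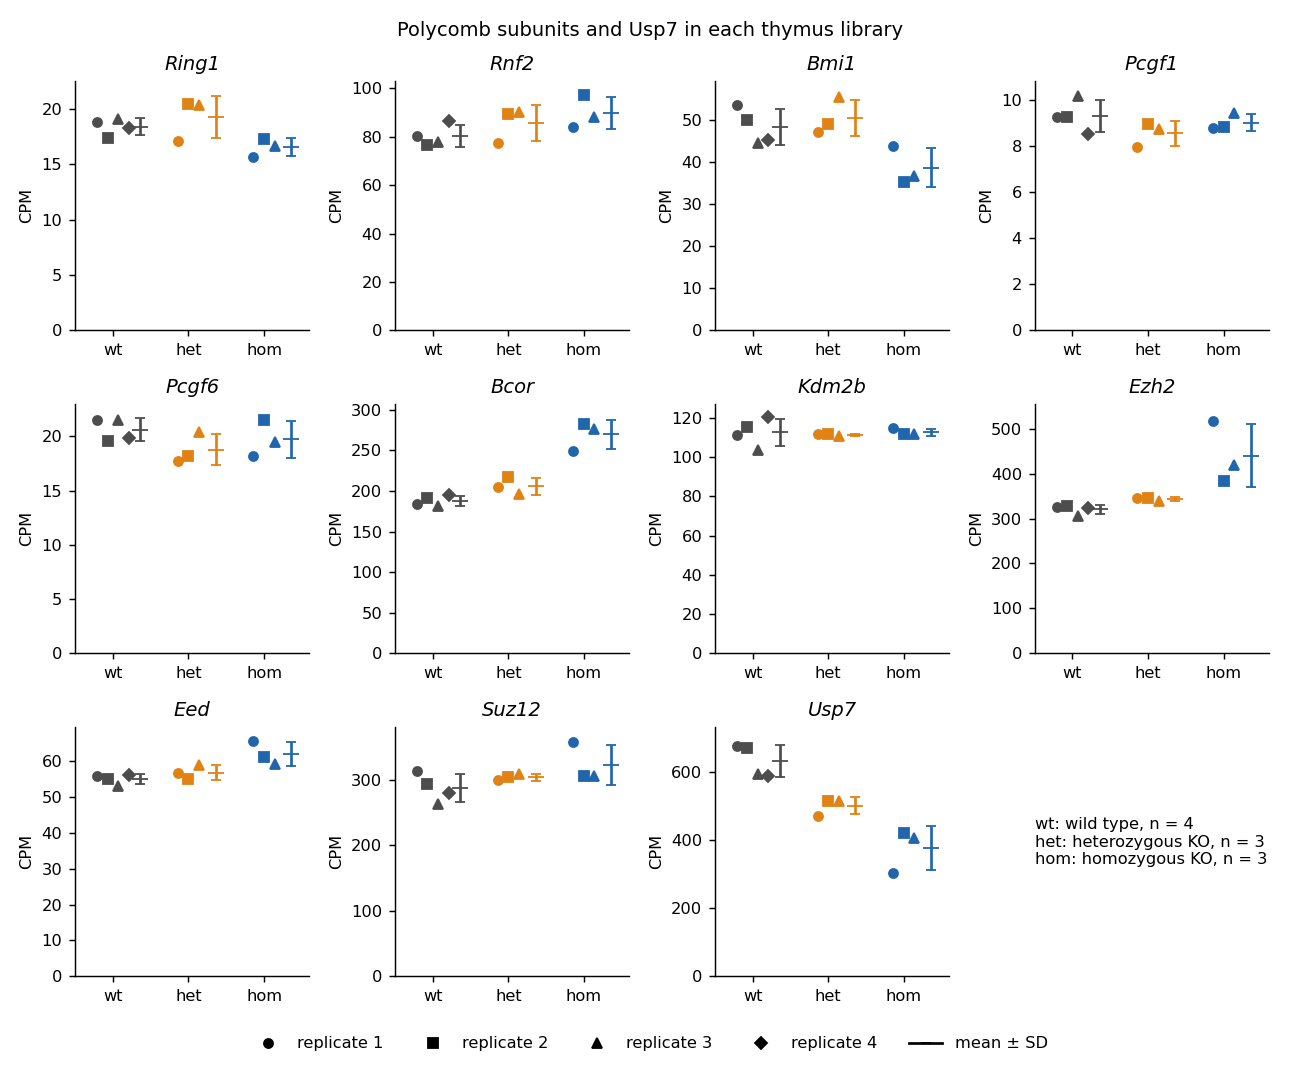
Levels of the 10 Polycomb subunits and Usp7 in every library, in CPM on axes from 0, by group (wild type n = 4, heterozygous KO n = 3, homozygous KO n = 3); each symbol is 1 library and the bar is the mean ± SD. The homozygous libraries lie above all wild types for Bcor, Ezh2 and Eed and below them for Bmi1, Ring1 and Usp7.

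In heterozygous KO against wild type none of the 10 members was called in edgeR's quasi-likelihood test, with 0.0154% of all features called, 3 in all. At an unadjusted p under 0.05 there was 1 member, Bcor, beside 1421 of all features, and DESeq2 called 0 members. The fitted values ran from −0.13 (Pcgf6) to 0.13 (Bcor), with SEs up to 0.10. Bcor and Ezh2 were the only members whose heterozygous and wild-type libraries did not overlap, where 8.69% of all features did not.

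In homozygous KO against heterozygous KO, Bcor and Ezh2 were again called higher and Bmi1 lower. This made 3 of 10 members called beside 17.1% of all features, with 7.63% called higher and 9.5% called lower. The groups did not overlap for 4 members (Bmi1, Bcor, Ezh2 and Eed), beside 33.3% of all features. The comparison shares its homozygous libraries with the first, so it is not separate evidence for the same 3 genes.

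**Figure D2:**
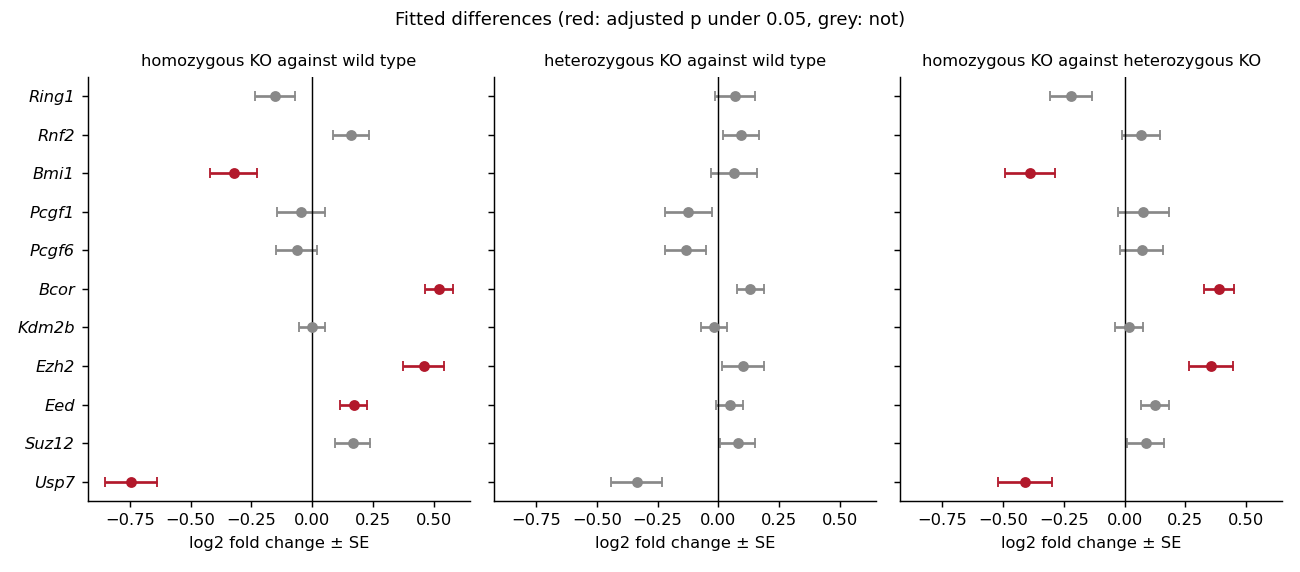
Fitted log2 fold change ± SE of the 10 subunits and Usp7 in the 3 comparisons of group means (homozygous KO n = 3, heterozygous KO n = 3, wild type n = 4). Red points had an adjusted p under 0.05. In homozygous KO against wild type Bcor (0.52), Ezh2 (0.46) and Eed (0.17) lie to the right of 0 and Bmi1 (−0.32) and Usp7 (−0.74) to the left, and no point of heterozygous KO against wild type is red.

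The catalytic pair of PRC1 was not called in any comparison of the main design. Ring1 was measured at 15.7, 17.3 and 16.7 CPM in the homozygous libraries, 17.1, 20.4 and 20.3 CPM in the heterozygous and 18.9, 17.4, 19.1 and 18.3 CPM in the wild-type libraries. Its homozygous libraries all lay just under the wild types, at −0.15 ± 0.08 on the log2 scale (SE; adjusted p = 0.203). With library totals in place of TMM it was called lower (−0.25; edgeR adjusted p = 0.0480), and against heterozygous KO it was called lower with library totals (−0.31; adjusted p = 0.0346) or without heterozygous replicate 1 (−0.31; adjusted p = 0.0401), where the main value was −0.22 (adjusted p = 0.117). Rnf2, which supplies most of the ubiquitin ligase activity in many cell types, stood at 84.3, 97.1 and 88.2 CPM in the homozygous libraries, 77.4, 89.5 and 90.4 CPM in the heterozygous and 80.3, 76.8, 77.8 and 86.7 CPM in the wild types. These groups overlapped, at 0.16 ± 0.07 (SE; adjusted p = 0.134).

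The fitted values of these paralogues had opposite signs, and their ratio within a library separated the homozygous group. The log2 ratio of Ring1 to Rnf2 was −2.42, −2.49 and −2.40 in the homozygous libraries, −2.17 to −2.13 in the heterozygous and −2.25 to −2.03 in the wild types. The homozygous values were below all others. This ratio is a description with no test, and so are the other paralogue ratios.

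Among the PCGF members Bmi1 alone was called. Bmi1, the PCGF protein of canonical PRC1 and a repressor of the Cdkn2a locus, stood at 43.8, 35.2 and 36.7 CPM in the homozygous libraries, 46.99, 49.0 and 55.2 CPM in the heterozygous and 53.4, 49.9, 44.5 and 45.1 CPM in the wild types. All homozygous libraries were below all others, the nearest pair being homozygous replicate 1 and wild-type replicate 3. In edgeR's quasi-likelihood test it fell by 0.32 ± 0.10 on the log2 scale against wild type (SE; adjusted p = 0.0309) and by 0.39 ± 0.10 against heterozygous KO (SE; adjusted p = 0.0243), and the heterozygous level did not differ detectably from wild type (0.06 ± 0.10; adjusted p = 0.925).

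The Bmi1 call against wild type rested on few libraries and was lost in 6 of 19 alternative fits. Its adjusted p in edgeR's quasi-likelihood test was 0.130 without homozygous replicate 2, 0.115 without homozygous replicate 3, and 0.0799 or 0.0739 when wild-type replicate 1 or 2 was left out, and it was 0.243 against the 2 wild types with 1 wt word in the title, with a negative log2 fold change each time. Against heterozygous KO the call was lost in 5 of 19 alternative fits. Its edgeR adjusted p was 0.0904 and 0.0867 without homozygous replicates 2 and 3, and 0.0567 and 0.105 without heterozygous replicates 2 and 3.

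Pcgf1, the PCGF protein of the complex that also holds BCOR and KDM2B, varied between 7.94 and 10.2 CPM over all 10 libraries. In homozygous KO it differed from wild type by −0.05 ± 0.10 on the log2 scale (SE; edgeR adjusted p = 0.765). Pcgf6, which belongs to the complex with MGA and L3MBTL2, varied between 17.8 and 21.6 CPM over all libraries, at −0.06 ± 0.08 (SE; edgeR adjusted p = 0.622). For both genes the libraries of the 3 groups overlapped.

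Outside the member list, Pcgf2, the closest paralogue of Bmi1, stood at 2.07, 2.27 and 3.64 CPM in the homozygous libraries, 1.95, 2.14 and 2.74 CPM in the heterozygous and 1.33, 2.36, 1.52 and 1.64 CPM in the wild types. The fitted rise of 0.64 ± 0.26 was not called (SE; edgeR adjusted p = 0.0956). The log2 ratio of Bmi1 to Pcgf2 was 3.90 ± 0.54 in homozygous, 4.48 ± 0.13 in heterozygous and 4.85 ± 0.38 in wild-type libraries (SD; n = 3, 3 and 4), and homozygous replicate 1 at 4.41 overlapped the other groups.

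The largest change of a member was in the complex that USP7 is known to join. Bcor encodes its corepressor scaffold and lies on the X chromosome. It stood at 250, 283 and 277 CPM in the homozygous libraries, 205, 217 and 196 CPM in the heterozygous and 183, 191, 182 and 195 CPM in the wild types. The 3 groups did not overlap at any pair, with the heterozygous libraries just above the wild types and the homozygous well above both. In edgeR's quasi-likelihood test Bcor was higher by 0.52 ± 0.06 in homozygous KO against wild type (SE; adjusted p = 8.29e-05), by 0.39 ± 0.06 against heterozygous KO (SE; adjusted p = 0.00134) and by 0.13 ± 0.06 in heterozygous KO against wild type, which was not called (SE; adjusted p = 0.681).

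Bcor kept its call in homozygous KO against wild type in each of 19 alternative fits, with log2 fold changes from 0.43 to 0.57. The Xist-positive homozygous replicate 3, at 277 CPM, stood between the Xist-negative replicates 1 and 2. Within the animals numbered 44 to 51 the homozygous library exceeded the wild-type mean by 0.43 on the log2 scale, and within those numbered 56 to 63 by 0.52.

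Its paralogue Bcorl1 was not called, at 0.12 ± 0.06 (SE; edgeR adjusted p = 0.188). The log2 ratio of Bcor to Bcorl1 was 2.68, 2.74 and 2.71 in the homozygous libraries, 2.29 to 2.50 in the heterozygous and 2.20 to 2.36 in the wild types. The homozygous values were again separate from all others. Kdm2b, which brings this complex to unmethylated CpG islands, had the smallest fitted value of the members in homozygous KO against wild type. It stood at 115, 112 and 112 CPM in the homozygous, 112, 112 and 111 CPM in the heterozygous and 111, 115, 104 and 120 CPM in the wild-type libraries, a fitted difference of 0.00 ± 0.05 on the log2 scale (SE; edgeR adjusted p = 0.989), whose sign changed in 7 of 19 alternative fits. Skp1, another subunit of the same complex that also serves other ubiquitin ligases, was called lower, at 223, 226 and 208 CPM in homozygous against 253 to 269 CPM in wild-type libraries (−0.26 ± 0.05 on the log2 scale; SE; edgeR adjusted p = 0.00228).

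The PRC2 core genes all had positive fitted values in homozygous KO against wild type, and Ezh2 and Eed were called. Ezh2, the main methyltransferase of PRC2 in dividing cells, stood at 518, 384 and 418 CPM in the homozygous libraries, 345, 346 and 340 CPM in the heterozygous and 326, 327, 305 and 323 CPM in the wild types. The groups did not overlap, and the spread was widest in the homozygous group, where replicate 1 stood above the rest. In edgeR's quasi-likelihood test Ezh2 was higher by 0.46 ± 0.08 against wild type (SE; adjusted p = 0.00244) and by 0.36 ± 0.09 against heterozygous KO (SE; adjusted p = 0.0196). The first call was kept in each of 19 alternative fits, at 0.32 to 0.56. The second was lost in 5 of 19, among them those without heterozygous replicate 1, 2 or 3 (edgeR adjusted p = 0.0660, 0.0617 and 0.0701). Within the animals numbered 44 to 51 the difference from wild type was 0.70 on the log2 scale, and within those numbered 56 to 63 it was 0.31.

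Eed, which binds methylated histone H3 and stimulates the enzyme, stood at 65.7, 61.2 and 59.3 CPM in the homozygous libraries, 56.8, 55.0 and 59.0 CPM in the heterozygous and 55.9, 55.0, 53.2 and 56.3 CPM in the wild types. The homozygous libraries lay above all others, by a narrow margin over heterozygous replicate 3. The log2 fold change against wild type was 0.17 ± 0.05 (SE; edgeR adjusted p = 0.0398), a call that was lost in 13 of 19 alternative fits. Leaving out 1 library ended it for homozygous replicate 1 (0.13; edgeR adjusted p = 0.137) and 2 (0.0690), heterozygous replicate 2 (0.0569) and 3 (0.0564) and wild-type replicate 1 (0.0665), 2 (0.0852) and 3 (0.0847), the values after the first being adjusted p. Suz12, the scaffold of PRC2, stood at 358, 305 and 305 CPM in the homozygous libraries, 299, 303 and 309 CPM in the heterozygous and 313, 293, 263 and 280 CPM in the wild types. These groups overlapped, at 0.17 ± 0.07 (SE; edgeR adjusted p = 0.114).

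Ezh1, the paralogue that serves PRC2 in cells that divide little, was lower. It stood at 33.9, 40.1 and 35.8 CPM in the homozygous, 36.7, 38.2 and 39.3 CPM in the heterozygous and 46.2, 42.6, 48.6 and 41.3 CPM in the wild-type libraries, and was called lower in homozygous KO (−0.29 ± 0.08; SE; edgeR adjusted p = 0.0200), a call lost without homozygous replicate 1 or 3 and against either pair of wild types alone (adjusted p up to 0.0886). The heterozygous libraries were also all below the wild types, without a call (−0.23 ± 0.08; adjusted p = 0.637). As a result the log2 ratio of Ezh2 to Ezh1 was 3.93, 3.26 and 3.55 in the homozygous libraries, 3.24, 3.18 and 3.11 in the heterozygous and 2.82, 2.94, 2.65 and 2.97 in the wild types, in 3 groups that did not overlap.

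Genes of dividing cells rose in the same libraries. All 12 genes of a cycling-cell list were called higher in homozygous KO against wild type, with log2 fold changes from 0.31 to 0.65, led by Ccna2, the cyclin of DNA replication, at 0.65. Their summed level was 10430, 7544 and 8427 CPM in the homozygous, 7478, 7170 and 6546 CPM in the heterozygous and 6607, 6774, 5595 and 6539 CPM in the wild-type libraries. Homozygous replicate 1 was the highest library for this sum as for Ezh2, Eed and Suz12. Between heterozygous KO and wild type edgeR's quasi-likelihood test called 0 of these 12 genes, 0 had an unadjusted p under 0.05 and DESeq2 called 0.

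Set against that sum, a measure chosen after the values were seen, Ezh2 no longer separated the groups. The sum weights its genes by their level, and Mki67, the most abundant of them, had a mean of 2195 CPM in wild type. Ezh2 amounted to 5.01% ± 0.07 of the cycling sum in homozygous, 4.88% ± 0.29 in heterozygous and 5.04% ± 0.28 in wild-type libraries (SD; n = 3, 3 and 4). Suz12 amounted to 3.70% ± 0.31, 4.32% ± 0.37 and 4.51% ± 0.24, and Eed to 0.715% ± 0.091, 0.809% ± 0.080 and 0.868% ± 0.059, in the same order. For both genes all homozygous libraries lay below all wild types on this measure. The margin was 4.043% against 4.287% for Suz12 and only 0.8117% against 0.8123% for Eed. Bcor amounted to 3.14% ± 0.69, 2.92% ± 0.16 and 2.96% ± 0.21, with groups that overlapped. Homozygous replicate 1 had the highest cycling sum and the lowest Bcor of its group. Bmi1 fell further relative to the cycling sum, to 0.440% ± 0.024 in homozygous against 0.758% ± 0.055 in wild-type libraries. The part of dividing cells in the Bcor, Ezh2 and Eed differences was not tested.

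**Figure D3:**
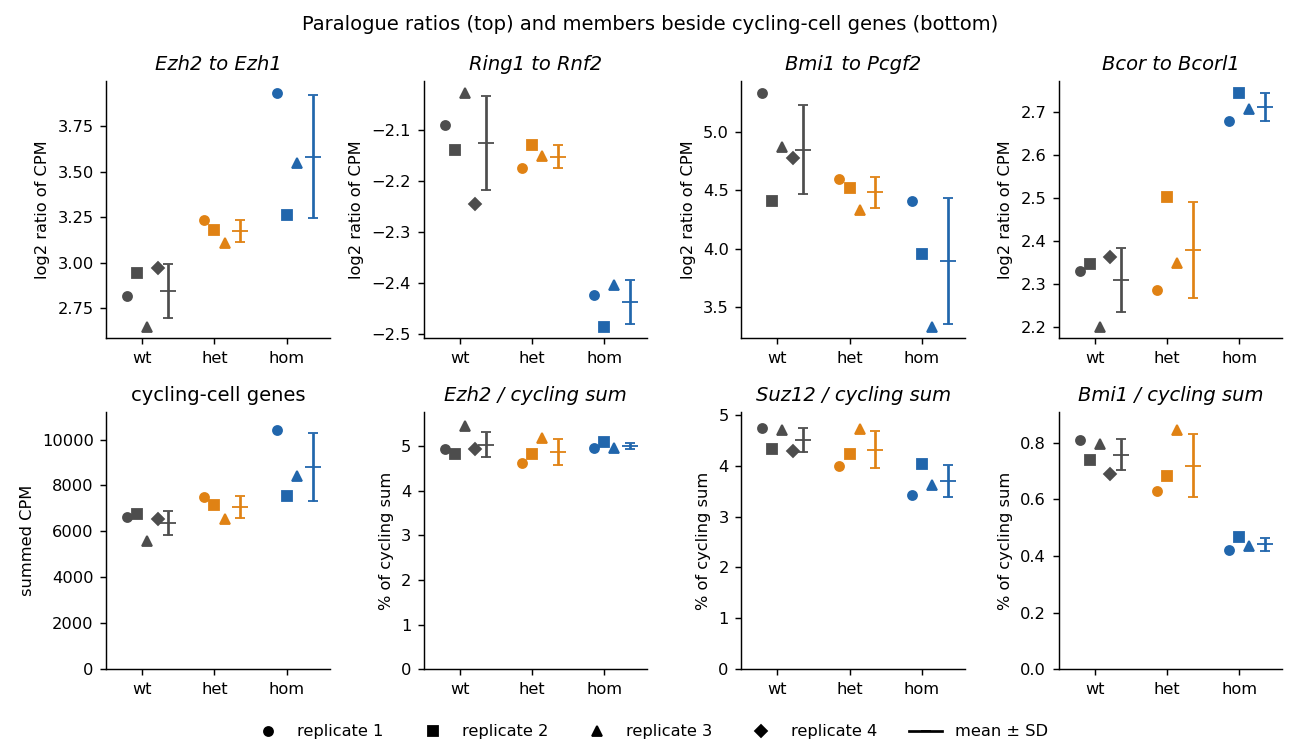
Top row, log2 ratio of the CPM of 4 members to a paralogue in each library (axes do not start at 0); bottom row, summed CPM of 12 cycling-cell genes and Ezh2, Suz12 and Bmi1 as a percentage of that sum (axes from 0). Symbols are libraries and bars are the mean ± SD by group (wild type n = 4, heterozygous KO n = 3, homozygous KO n = 3). The Ezh2 to Ezh1 ratio falls in 3 separate ranges, whereas Ezh2 as a share of the cycling sum lies between 4.61% and 5.45% in all libraries.

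The promoters of the members that were called, and of Suz12, are shown. Many genes of dividing cells are known E2F targets, and a part of E2F in the differences of the members was not tested. Sequences are from RefSeq for GRCm38.p6, 250 bases before to 30 bases after the listed start, read 5′ to 3′ on the gene's strand. They lie at chr6:47595001-47595280 (Ezh2, minus strand), chr11:79992856-79993135 (Suz12, plus strand), chr7:89980947-89981226 (Eed, minus strand), chrX:12160317-12160596 (Bcor, minus strand, the first of 2 listed starts) and chr2:18676768-18677047 (Bmi1, plus strand). Capitals mark an exact match to 1 of 4 E2F-type words of 8 letters, TTTGGCGC, TTTCCCGC, TTTCGCGC and TTTGCCGC, searched on both strands.
Ezh2: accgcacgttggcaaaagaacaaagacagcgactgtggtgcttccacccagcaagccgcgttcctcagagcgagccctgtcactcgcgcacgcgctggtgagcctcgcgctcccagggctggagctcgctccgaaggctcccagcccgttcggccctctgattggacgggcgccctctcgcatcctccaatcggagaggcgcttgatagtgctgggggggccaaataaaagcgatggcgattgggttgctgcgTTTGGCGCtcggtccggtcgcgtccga
Suz12: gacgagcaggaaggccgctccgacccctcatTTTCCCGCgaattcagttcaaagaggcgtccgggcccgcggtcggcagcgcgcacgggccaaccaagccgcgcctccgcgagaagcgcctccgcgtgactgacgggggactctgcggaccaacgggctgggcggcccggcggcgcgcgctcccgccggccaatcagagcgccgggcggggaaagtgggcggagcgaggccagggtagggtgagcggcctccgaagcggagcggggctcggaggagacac
Eed: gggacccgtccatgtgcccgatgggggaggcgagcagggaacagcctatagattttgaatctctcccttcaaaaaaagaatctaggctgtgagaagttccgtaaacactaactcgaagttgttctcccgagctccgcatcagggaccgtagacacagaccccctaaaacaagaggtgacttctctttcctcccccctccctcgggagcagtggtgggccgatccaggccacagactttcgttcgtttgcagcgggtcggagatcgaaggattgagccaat
Bcor: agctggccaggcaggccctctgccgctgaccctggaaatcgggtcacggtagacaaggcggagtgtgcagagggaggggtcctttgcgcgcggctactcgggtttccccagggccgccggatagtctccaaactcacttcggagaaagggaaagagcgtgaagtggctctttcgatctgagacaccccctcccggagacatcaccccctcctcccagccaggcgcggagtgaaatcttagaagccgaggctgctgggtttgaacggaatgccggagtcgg
Bmi1: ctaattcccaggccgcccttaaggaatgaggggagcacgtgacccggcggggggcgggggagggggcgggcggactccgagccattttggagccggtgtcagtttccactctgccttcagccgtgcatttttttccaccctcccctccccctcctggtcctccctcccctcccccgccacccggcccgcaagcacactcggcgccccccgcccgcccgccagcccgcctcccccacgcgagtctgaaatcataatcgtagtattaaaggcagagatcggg

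Such a word was found in the windows of Ezh2 (bases 4 to 11 from the start) and Suz12 (−219 to −212), and in 744 of 32851 mouse promoters of this length, 2.26%. The other members in the table held none, which says only that these letters are absent from the window. Of the 10 members 9 had a listed promoter, all but Pcgf1. They were rich in CpG, with 31 CpG in Ezh2, 41 in Suz12, 17 in Eed, 21 in Bcor and 23 in Bmi1 in the full windows, where the median over all promoters was 7. The called and uncalled members did not separate by CpG count, since among the uncalled Ring1 held 37, Rnf2 30 and Pcgf6 22, the last 2 within the range of the called members.

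On a scale per length Suz12 and Ezh2 were the most abundant members. Dividing the wild-type CPM by the exon length in kilobases of GENCODE for GRCm38, a later build than the one used for counting, gave 58.1 ± 4.3 CPM per kb for Suz12, 47.96 ± 1.5 for Ezh2, 21.7 ± 0.7 for Bcor, 19.5 ± 1.1 for Rnf2, 14.4 ± 0.4 for Eed, 12.1 ± 1.1 for Bmi1, 10.4 ± 0.7 for Kdm2b, 5.68 ± 0.23 for Ring1, 5.65 ± 0.41 for Pcgf1 and 4.10 ± 0.21 for Pcgf6 (SD, n = 4). The wild-type ranges of neighbours in this order overlapped for Bcor and Rnf2 and for Ring1 and Pcgf1, and for no other pair. In homozygous KO Ezh2, at 65.9 ± 10.4 CPM per kb, stood level with Suz12, at 65.3 ± 6.2 (SD, n = 3), and Bmi1 stood at 9.70 ± 1.16, under Kdm2b at 10.4 ± 0.2. Among the PCGF genes Bmi1 was the most abundant per length in wild type, followed by Pcgf3 at 7.88 ± 0.45 CPM per kb, and Pcgf2 was the least, at 0.486 ± 0.128.

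The count of reads carries a limit for some members. Exons of Ezh2, Eed, Suz12, Rnf2 and Kdm2b overlap those of a neighbouring gene over short stretches in the GENCODE annotation, whereas those of Bcor, Bmi1, Ring1, Pcgf1 and Pcgf6 do not, and the strand setting of the counting was not given in the sources used here.

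Among 43 further genes of the pathway, 25 PRC1 partners, 10 PRC2 partners and 8 enzymes or cofactors that oppose the marks, 15 were called in homozygous KO against wild type, 11 higher and 4 lower. This is 15 of 43 beside the 25.8% of all features, of which 12.5% were called higher and 13.2% lower. The median log2 fold change of the 43 was 0.11. In heterozygous KO against wild type 0 were called by edgeR, with 6 at an unadjusted p under 0.05, and DESeq2 called 0, with 1 gene left without an adjusted p. In homozygous KO against heterozygous KO 4 of the 43 were called, beside 17.1% of all features, Phc1, Phf19 and Asxl1 higher and Skp1 lower.

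Among the 25 PRC1 partners 7 were called higher and 2 lower, beside 12.5% and 13.2% of all features. Phc1, a polyhomeotic protein that links canonical PRC1 particles, stood at 86.7, 78.6 and 84.0 CPM in the homozygous, 67.8, 68.6 and 67.2 CPM in the heterozygous and 63.6 to 65.7 CPM in the wild-type libraries, in 3 groups that did not overlap (0.37 ± 0.05; SE; edgeR adjusted p = 0.000281). Phc2 and Phc3 were not called, at 0.11 and −0.02. Scmh1, a further component of canonical PRC1, was higher by 0.35 ± 0.08 (SE; edgeR adjusted p = 0.0106).

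Cbx7, one of the chromodomain proteins that bring canonical PRC1 to methylated histone H3, was called lower, with wide spread. It stood at 35.8, 25.7 and 33.6 CPM in the homozygous, 29.9, 30.9 and 41.4 CPM in the heterozygous and 53.4, 52.4, 56.9 and 35.3 CPM in the wild-type libraries. Wild-type replicate 4 lay within the range of the knock-outs, so the groups overlapped (−0.64 ± 0.18; SE; edgeR adjusted p = 0.0215). The call was lost in 5 of 19 alternatives, among them those that left out homozygous replicate 2 or wild-type replicate 1, 2 or 3, with adjusted p up to 0.156. Cbx2, Cbx6 and Cbx8 were not called, with log2 fold changes from −0.13 to 0.22.

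Of the complex that holds PCGF6, 4 partners were called higher by edgeR's test: E2f6 (0.35 ± 0.10), Tfdp1 (0.30 ± 0.08), Mga (0.25 ± 0.07) and L3mbtl2 (0.18 ± 0.06), as was Wdr5 (0.20 ± 0.06), a subunit it shares with methyltransferases of another kind. Pcgf6 itself was not called, and neither was Max, the DNA-binding partner of MGA, at −0.11 ± 0.06. These calls were near the threshold, at adjusted p of 0.0200 to 0.0443, and were kept in 10 (E2f6), 15 (Tfdp1), 12 (Mga), 4 (L3mbtl2) and 11 (Wdr5) of 19 alternatives. Rybp and Yaf2, which mark non-canonical PRC1, were not called (0.10 ± 0.13 and −0.08 ± 0.10).

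**Figure D4:**
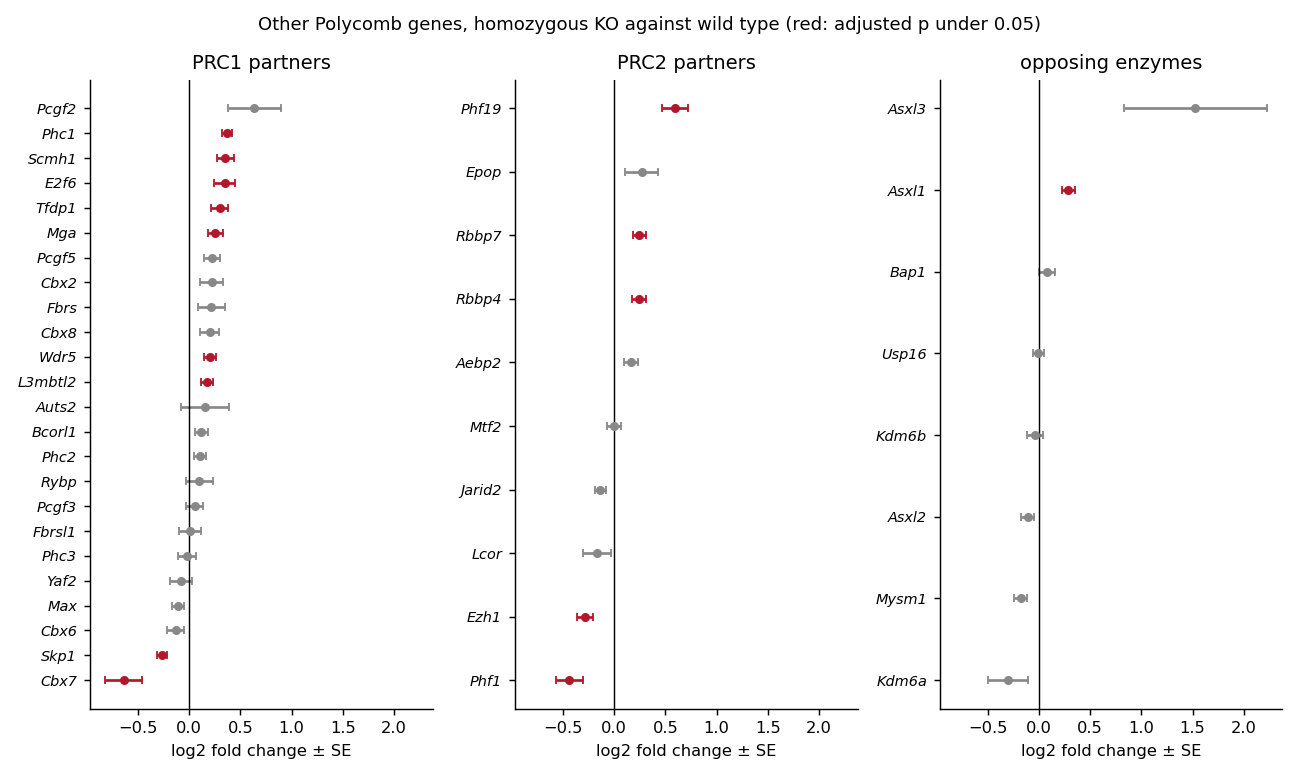
Fitted log2 fold change ± SE of PRC1 partners, PRC2 partners and opposing enzymes or cofactors in homozygous KO (n = 3) against wild type (n = 4), with 1 uncalled partner not shown, sorted within each list. Red points had an adjusted p under 0.05, 11 of them to the right of 0 and 4 (Cbx7, Skp1, Phf1 and Ezh1) to the left.

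Among the PRC2 partners the accessory proteins split. Phf19 was higher, at 93.8, 57.3 and 73.5 CPM in the homozygous against 48.4 to 50.8 CPM in the wild-type and 48.8 to 57.8 CPM in the heterozygous libraries (0.59 ± 0.13 against wild type; SE; edgeR adjusted p = 0.00644). Its homozygous replicate 1 was the highest, as for the cycling sum. Phf1, of the same family of methyl-lysine readers, was lower, with a mean of 20.3 ± 0.4 CPM in homozygous (n = 3) against 27.6 ± 5.0 CPM in wild-type libraries (SD, n = 4; −0.44 ± 0.13 on the log2 scale; SE; edgeR adjusted p = 0.0299). Wild-type replicate 4, at 20.4 CPM, lay within the homozygous range, and the call was kept in 11 of 19 alternatives, being lost with the animal-number block, against the wild types with 1 wt word, and without any 1 homozygous library or wild-type replicate 1, 2 or 3 (adjusted p up to 0.196). Mtf2, the third member of that family, stood at 0.00 ± 0.07 (adjusted p = 0.993).

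The histone chaperones Rbbp4 and Rbbp7, which PRC2 shares with other complexes, were each higher by 0.24 ± 0.06 (SE; edgeR adjusted p = 0.0172 and 0.0162). Jarid2 and Aebp2, which define the other form of PRC2, were not called, at −0.14 ± 0.06 and 0.17 ± 0.07, although a fit with the animal-number ranges as a block called both, Aebp2 at an edgeR adjusted p of 0.00966, and library totals in place of TMM also called Jarid2. Of the opposing enzymes and cofactors Asxl1 alone was called, a partner of the H2A deubiquitinase BAP1, at 285, 255 and 270 CPM in homozygous against 210 to 231 CPM in wild-type libraries (0.28 ± 0.06; SE; edgeR adjusted p = 0.00677), and Bap1 stood at 0.08 ± 0.08. Kdm6a, an X-linked demethylase known to escape X inactivation, followed Xist: it stood at 176 to 203 CPM in the 4 Xist-positive libraries and at 109 to 120 CPM in the other 6.

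Genes that Polycomb is known to silence moved in both directions. Of 43 listed, the Hox genes, Cdkn2a, Cdkn2b, Pax5 and Ebf1, 41 were matched and 11 were tested, while the other 30 did not pass the filter and reached at most 0.156 CPM in any library. Of the 11 tested, 7 differed between homozygous KO and wild type by the same call, beside 25.8% of all features, 2 higher (12.5% of all features) and 5 lower (13.2%). In heterozygous KO against wild type edgeR called 0, with 1, Hoxa9, at an unadjusted p under 0.05, and DESeq2 called 0, with 8 of the 11 left without an adjusted p. In homozygous KO against heterozygous KO, which shares the homozygous libraries, 4 of the same 7 genes were called, beside 17.1% of all features, Cdkn2a higher and Pax5, Hoxa7 and Hoxa9 lower. At such low counts a gene can pass the filter only through the libraries where it is higher. Cdkn2a passed through the homozygous libraries, and Hoxa9, Hoxb4 and Pax5 through the others. Being tested is thus tied to differing, so neither count can be read against the share of all features.

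The cell-cycle inhibitors of the Cdkn2a locus were higher. Cdkn2a stood at 0.903, 1.16 and 1.15 CPM in the homozygous libraries, with 104 to 119 counts each, at 0.0314 to 0.0762 CPM in the heterozygous and at 0.0242 to 0.217 CPM in the wild types, with 2 to 9 counts each. The homozygous libraries stood far above all others. The log2 fold change was 3.53 ± 0.52 against wild type (SE; edgeR adjusted p = 0.000589) and 4.23 ± 0.58 against heterozygous KO (SE; adjusted p = 0.000545), calls kept in each of 19 alternatives. From the summed counts, 327 against 22, the ratio to wild type was 12.3, with a 95% exact interval of 7.96 to 19.8 that covers counting error only. The locus also encodes the p19Arf transcript, which gene-level counts do not separate from p16Ink4a.

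Cdkn2b, its neighbour, stood at 0.573, 0.479 and 0.410 CPM in homozygous against 0.0481 to 0.293 CPM in wild-type libraries (1.35 ± 0.45; SE; edgeR adjusted p = 0.0487), a call near the threshold that was kept in 4 of 19 alternatives. Both levels are low for whole tissue, next to the 38.5 ± 4.6 CPM (SD, n = 3) of Bmi1 in the same homozygous libraries on the scale of CPM, which takes no account of length.

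Of 7 Hox genes tested, Hoxa7, Hoxa9 and Hoxb4 were called, all lower, and Hoxa2, Hoxa4, Hoxa5 and Hoxa6 were not, with log2 fold changes from −0.93 to 0.50. Hoxa7 stood at 0.434, 0.235 and 0.521 CPM in the homozygous, 0.890 to 1.54 CPM in the heterozygous and 0.709 to 1.54 CPM in the wild-type libraries, without overlap (−1.51 ± 0.38 against wild type; SE; edgeR adjusted p = 0.0129). Hoxa9 had 0, 1 and 1 counts in the homozygous libraries and 5 to 33 counts in the wild types, a ratio of 0.0209 with a 95% exact counting interval of 0.00249 to 0.0780. Hoxb4 had 4, 1 and 0 counts against 3 to 7, a ratio of 0.188 with an interval of 0.0555 to 0.507. Their edgeR adjusted p were 0.000980 and 0.0494, and the Hoxb4 call was kept in 7 of 16 alternatives, with adjusted p up to 0.142.

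Pax5 and Ebf1, transcription factors of B cells, fell together with B-cell markers. Pax5 had 7, 1 and 0 counts in the homozygous libraries and 45 to 114 in the wild types, a ratio of 0.0214 with a 95% exact counting interval of 0.00914 to 0.0426 (edgeR adjusted p = 7.58e-05). Ebf1 stood at 0.382 to 0.521 CPM in the homozygous and 0.909 to 1.59 CPM in the wild-type libraries (−1.41 ± 0.28; SE; edgeR adjusted p = 0.00338). Of 6 B-cell markers 5 were called lower, and Ms4a1 stood at 0.00978 CPM or less in the homozygous libraries against 2.92 to 8.04 CPM in the wild types. The part of the number of B cells in the Pax5 and Ebf1 differences was not tested.

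**Figure D5:**
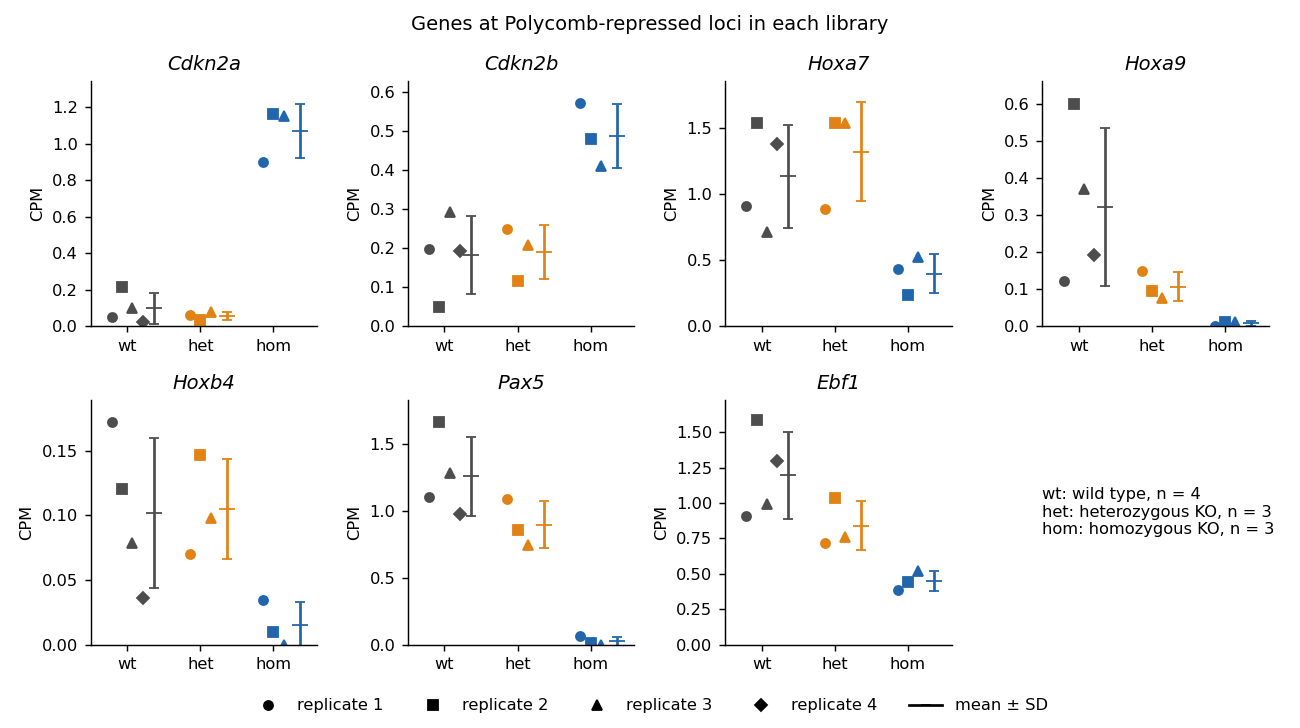
Levels of the 7 called genes at loci that Polycomb is known to silence, in CPM on axes from 0, in every library (wild type n = 4, heterozygous KO n = 3, homozygous KO n = 3) with the mean ± SD of each group. Cdkn2a and Cdkn2b lie higher in all 3 homozygous libraries than in any other, and Hoxa7, Hoxa9, Pax5 and Ebf1 lie lower.

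Other cell types moved with the homozygous group as well. All 6 neutrophil markers were called higher, with summed levels of 55.8 to 309 CPM in homozygous and 6.06 to 22.7 CPM in wild-type libraries. Of 6 fibroblast markers 4 were called higher, summed at 10.4 to 32.3 CPM against 4.25 to 12.9 CPM. Of 6 myeloid markers 5 were called lower, with summed levels of 36.4 to 64.2 CPM against 60.2 to 85.8 CPM. The remaining myeloid marker, the most abundant in that sum, had a positive fitted value without a call. Of 6 markers of thymic epithelium Krt5 alone was called, higher. Of the endothelial and erythroid markers edgeR called 0, with 1 of each at an unadjusted p under 0.05, and DESeq2 called the endothelial Cdh5. Of the 8 markers of double-positive thymocytes Rag1, the recombinase of T-cell receptor genes, was called lower (−0.85) and Cd8a higher (0.26), and their sum was 7876 to 8097 CPM in homozygous and 9622 to 10929 CPM in wild-type libraries. The part of these cells in the differences of the Polycomb members was not tested.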

How the data were processed

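Whole-thymus RNA from 10 mice was measured. Ribosome-depleted, stranded libraries had been sequenced on a NovaSeq instrument, and the authors deposited 1 table of raw counts per gene with 1 column per animal. The submitters' processing notes name CASAVA, STAR 2.4.1d, HTSeq 0.6.1p1 and the mouse build mm9 (NCBIM37), whereas the study's methods describe a BWA-based pipeline. The strand setting is not given in the sources used here, so reads shared with overlapping genes are uncertain. Depth was 39.8 to 122 M counts, and 3 counts correspond to 0.0245 to 0.0753 CPM. Features without an Ensembl identifier, 908 of 35375, held 1.74% to 2.29% of the counts.

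Samples were grouped by title. All 10 libraries entered 1 fit in edgeR 4.0.16 (R 4.3.3; TMM, filterByExpr, glmQLFit, glmQLFTest), with group as the only term and Benjamini-Hochberg adjustment over 19511 features. The SE was the log2 fold change divided by the root of the quasi-likelihood F. The fit was run on simulated counts with the same spread for all genes, which checks the code and not the calls in these data. P-values measure the spread between these mice. Members, lists and alternatives were chosen with earlier results of these data known. Named genes were all members and Usp7, any pathway partner (called ones first), called genes or those over 1 CPM among repressed loci, and up to 3 called genes of each cell list. Symbols and exon lengths came from GENCODE for GRCm38 and RefSeq, and the list entries Hoxa3 and Hoxd4 were not matched. The values of 2 list genes are not reported here. Counting intervals were exact binomial at 95% (scipy).

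Alternatives were RLE factors, library totals, no filter, DESeq2 1.42.0, either form of wild-type title alone (1 or 2 wt words), a replicate block, an animal-number block (44 to 51, 56 to 63), an Xist covariate and leaving out each library. Block differences used log2(CPM + 0.1). No 2 libraries of a group agreed within sampling noise (chi-square per degree of freedom at least 12.6).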

Additional observations from a re-analysis of the deposited data

Results flagged for a closer look

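Differences within each of the 2 ranges of animal numbers in the titles were compared for the members, and in 3 of them every knock-out library lay beyond all wild-type libraries of its range on one side in the first range and on the opposite side in the second. Ring1 in heterozygous KO against wild type was −0.105 on the log2 scale among animals 44 to 51 and 0.157 among animals 56 to 63. Pcgf1 in homozygous KO against wild type was −0.120 in the first range and 0.0982 in the second. Pcgf1 in heterozygous KO against wild type was −0.265 and 0.0538. None of these differences was tested, an arm held as few as 1 library, and neither gene was called in any comparison of the main design.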

How the results depend on the processing

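Members called in homozygous KO against wild type numbered 4. They numbered 2 against only the wild types with 1 wt word in the title, and 2 to 4 when 1 library was left out, with 2 without homozygous replicate 2, wild-type replicate 1 or wild-type replicate 2. The 3 calls of homozygous KO against heterozygous KO became 1 to 3 when 1 library was left out, with 1 without heterozygous replicate 2 or 3. Of the partner genes 15 had a call in homozygous KO against wild type, with 4 against the wild types with 1 wt word and 9 against those with 2. The 4 of homozygous KO against heterozygous KO became 7 with the animal-number block, and 2 to 6 when 1 library was left out, with 2 without heterozygous replicate 2 or 3. With the replicate number as a block, 3 members were called in homozygous KO against wild type and 3 in homozygous KO against heterozygous KO. The share of all features called in each of these fits is not given here. The changes in these counts therefore do not single out the Polycomb genes. Correlations of same-numbered libraries ran from −0.186 to 0.328, so the numbers were not taken as pairs.

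Of 627 refits of single members and Usp7, 569 kept direction and call, 32 lost a call, 3 gained one and 23 changed sign. In homozygous KO against wild type Kdm2b changed sign with library totals (−0.0928), no filter (−0.0128), wild types with 2 wt words (−0.0080) and the animal-number block (−0.0112), and ranged from −0.0375 to 0.0337 when 1 library was left out, and Pcgf1 from −0.0878 to 0.0013. In heterozygous KO against wild type Bmi1 was −0.0352 against wild types with 2 wt words and −0.0496 with the Xist covariate, Suz12 −0.0228 with the Xist covariate and Kdm2b 0.0178 with the replicate block. Leaving out 1 library gave −0.0058 to 0.12 for Bmi1 and −0.0548 to 0.0169 for Kdm2b. In homozygous KO against heterozygous KO, library totals gave −0.0182 for Rnf2, −0.0076 for Pcgf1, −0.0160 for Pcgf6, −0.0690 for Kdm2b and −0.00049 for Suz12, and no filter gave −0.0025 for Kdm2b. Leaving out 1 library gave −0.0048 to 0.0264 for Kdm2b, −0.0026 to 0.13 for Suz12 and −0.0074 to 0.11 for Rnf2. None of the results that changed sign was called. Library totals alone moved the median of all features to −0.11 in homozygous KO against wild type, with 1435 of 4941 calls higher in place of 2446 of 5030. The cause of these changes was not tested. Depth limits the Hox and Cdkn2 genes, at under 2 CPM.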
